A study of Mus musculus with 9 samples.

Results

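The rod phototransduction cascade was followed through 9 genes: Gnat1, Gnb1, Gngt1, Pde6a, Pde6b, Pde6g, Cnga1, Cngb1 and Sag. They were chosen by gene symbol, were found in all 9 libraries among the 22587 genes of the tables, and were all among the 21287 genes that passed the filter on low counts. Messenger RNA was sequenced from whole eyeballs of wild-type females of BALB/C, an albino mouse strain, at postnatal day 56. The T.chuii group received scopolamine by injection into the abdomen and was fed the green microalga Tetraselmis chuii at 300 mg/kg. The DES group, a model of dry eye, received scopolamine and water. The CON group received water and no injection, so scopolamine and the injection itself cannot be told apart in any comparison with CON. Treatment began at 6 weeks of age and lasted 2 weeks, and each group had 3 libraries. Separate animals or pools are not told apart in the labels, so p-values reflect how libraries differ, and part of that may be technical.

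In rod photoreceptors, light switches on the G protein transducin, which releases the catalytic subunits of a cyclic GMP phosphodiesterase from their inhibitor. The fall in cyclic GMP closes a cation channel in the outer segment membrane, and arrestin takes part in ending the light response. Gnat1, Gnb1 and Gngt1 encode the alpha, beta and gamma subunits of rod transducin. Pde6a and Pde6b encode the catalytic subunits of the phosphodiesterase and Pde6g its inhibitory subunit. Cnga1 and Cngb1 encode the channel subunits, and Sag encodes rod arrestin. Gnb1 is also used outside rods, whereas the other 8 genes are known mainly from photoreceptors. The transcription factors CRX and NRL drive many rod genes.

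Windows of 300 bases, 250 before and 50 after an annotated transcription start, were available from RefSeq (GRCm38.p6, the assembly of mm10) for 6 of the 9 genes: Gnb1, Gngt1, Pde6b, Cnga1, Cngb1 and Sag. They were searched on both strands for the CRX-type letters TAATCC and the NRL-type letters TGCTGA. A CRX-type match on the other strand reads GGATTA. The motifs did not overlap in the windows shown. CRX-type letters stood in 4 of the 6 windows, against 7.06% of all 32851 windows of that length. NRL-type letters stood in 2 of the 6, against 19.5% of all windows. Of these windows, 4 are shown, written 5′ to 3′ along the gene with the matched letters in capitals. The gamma subunit gene, which departed most from the others, comes first (chr6:3993758-3994057, plus strand). It is followed by Pde6b (chr5:108388123-108388422, plus strand), Cngb1 (chr8:95306536-95306835, minus strand) and Sag (chr1:87803430-87803729, plus strand).
Gngt1: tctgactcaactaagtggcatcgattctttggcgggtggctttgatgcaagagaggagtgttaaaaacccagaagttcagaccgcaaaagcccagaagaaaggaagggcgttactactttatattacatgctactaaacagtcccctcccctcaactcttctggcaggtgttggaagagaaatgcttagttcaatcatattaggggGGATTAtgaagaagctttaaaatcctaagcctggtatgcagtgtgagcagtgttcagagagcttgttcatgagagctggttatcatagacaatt
Pde6b: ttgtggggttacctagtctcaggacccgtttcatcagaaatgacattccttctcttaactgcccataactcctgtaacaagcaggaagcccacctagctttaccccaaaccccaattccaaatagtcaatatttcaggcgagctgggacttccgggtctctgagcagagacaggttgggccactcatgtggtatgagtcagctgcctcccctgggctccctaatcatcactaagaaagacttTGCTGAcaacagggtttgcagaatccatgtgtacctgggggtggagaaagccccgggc
Cngb1: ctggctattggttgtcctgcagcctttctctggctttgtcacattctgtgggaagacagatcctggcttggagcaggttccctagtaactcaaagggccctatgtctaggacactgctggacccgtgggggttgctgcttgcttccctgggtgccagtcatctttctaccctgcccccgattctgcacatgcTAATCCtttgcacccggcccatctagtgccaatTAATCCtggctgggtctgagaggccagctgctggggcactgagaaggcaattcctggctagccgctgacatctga
Sag: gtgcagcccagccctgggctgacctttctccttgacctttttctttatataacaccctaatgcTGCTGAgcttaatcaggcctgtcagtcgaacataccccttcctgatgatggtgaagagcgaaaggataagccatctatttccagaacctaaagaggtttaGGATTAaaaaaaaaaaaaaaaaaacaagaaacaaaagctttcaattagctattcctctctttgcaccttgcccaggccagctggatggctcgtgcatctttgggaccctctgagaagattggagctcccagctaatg
Counted from the transcription start, the first CRX-type letter lay at -44 in Gngt1, at -58 and -25 in Cngb1, at -87 in Sag and at -228 in Cnga1. The first NRL-type letter lay at -8 in Pde6b and at -187 in Sag. The Gnb1 window held neither. A match describes these letters only, and no binding was measured in this study.

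Before the cascade is compared between groups, 3 libraries need to be named. T.chuii 1, DES 1 and CON 2, which are 1 library from each group, were the 3 lowest of the 9 libraries for all 9 cascade genes. Over all genes tested, 13.79% had their 3 lowest values in those libraries. The cascade genes together held 0.689%, 2.49% and 3.00% of reads in T.chuii 1, 2 and 3, 1.19%, 3.43% and 2.64% in DES 1, 2 and 3, and 2.65%, 1.23% and 2.70% in CON 1, 2 and 3. In RNA from a whole eye, fewer rods and less RNA per rod cannot be told apart.

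Other marker lists of the same libraries moved with the cascade or against it. The 3 libraries were the lowest for 21 of 22 partners of the rod cascade and disc, 9 of 10 cone genes, 7 of 8 rod regulators, 16 of 21 markers of other retinal neurons and 4 of 7 Müller glia markers. The summed Müller glia level did not follow the cascade in every group. It was 2492 CPM in CON 2 and 2471 CPM in DES 1, each the highest of its group. In T.chuii 1 it was 2296 CPM, the lowest of its group. The 3 libraries were the lowest for 0 of 11 corneal epithelium genes and the highest for 7 of these 11, against 13.14% of all genes. The summed corneal level in CPM (read counts divided by the scaled library total) was 44506 in T.chuii 1, 48180 in DES 1 and 78004 in CON 2, and between 11511 and 31775 in the other 6 libraries. Among the tested lens markers, 10 of 15 listed, the sum was 11741 to 59715 CPM in T.chuii, 384.8 to 43747 CPM in DES and 257.1 to 286.5 CPM in CON. Skeletal muscle markers summed to 2818 to 13720 CPM in T.chuii, 1214 to 6946 CPM in DES and 712.9 to 1856 CPM in CON. The 3 tested adipocyte markers of 6 listed summed to 84.4 to 1559 CPM in T.chuii, 11.7 to 43.5 CPM in DES and 4.67 to 29.5 CPM in CON. The 7 pigment epithelium markers summed to 2668 to 4279 CPM in T.chuii, 1056 to 4220 CPM in DES and 776.1 to 4084 CPM in CON. Absence of a tissue from a library cannot be read from these values, because the smallest deposited count was 1. The lens, muscle and adipocyte sums did not overlap between T.chuii and CON, and the part of tissue composition in the values below was not tested. Library totals lay between 39.1 and 64.6 M reads.

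**Figure D1:**
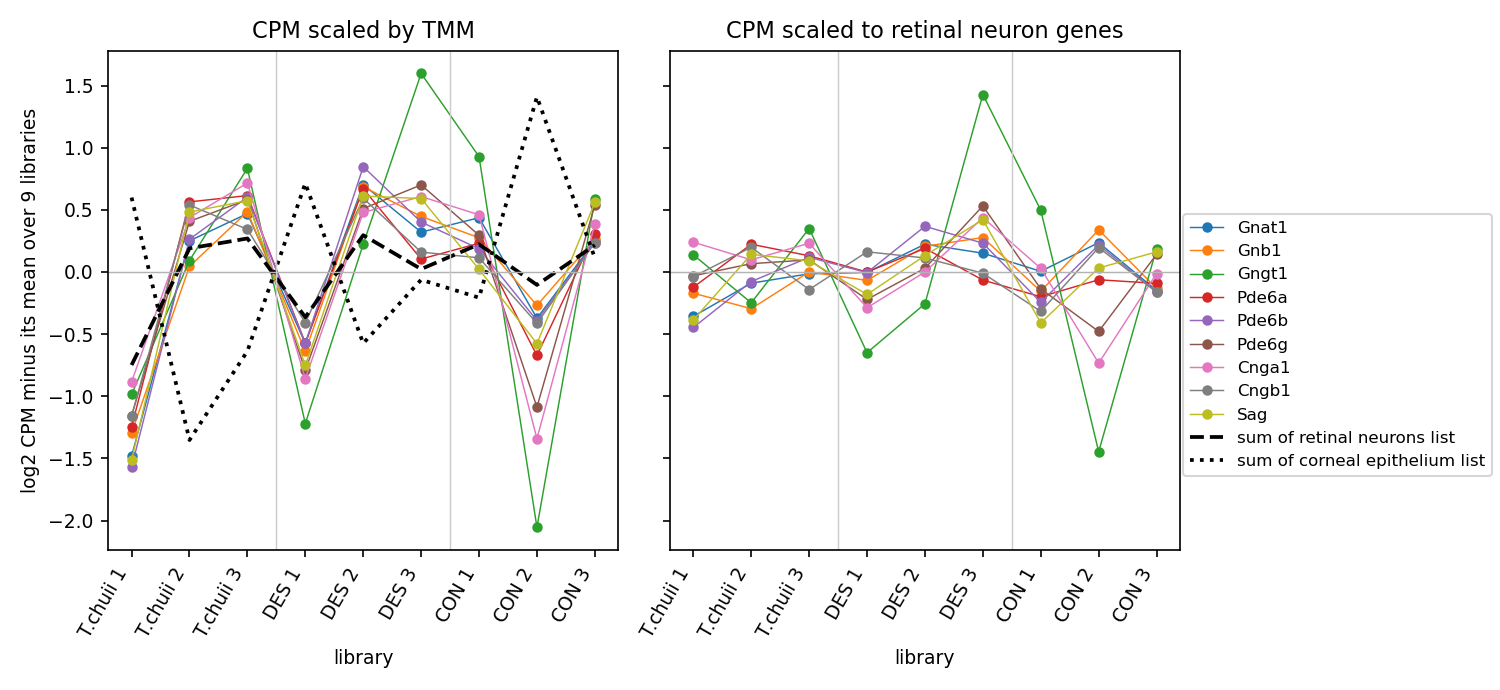
Log2 CPM of each cascade gene minus its mean over the 9 libraries, with libraries ordered T.chuii, DES, CON, scaled by TMM (left) or to markers of other retinal neurons (right). On the left all 9 genes are lowest in T.chuii 1, DES 1 and CON 2, where the summed corneal list (dotted) is highest. On the right 8 genes stay within 2.25-fold and Gngt1 spans 7.33-fold.

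The 3 subunits of rod transducin had 1 low library in each group. Gnat1, the alpha subunit (mm10 chr9:107674437-107679634), had 2504, 8318 and 9684 CPM in T.chuii 1, 2 and 3, 4696, 11384 and 8733 CPM in DES 1, 2 and 3, and 9462, 5402 and 8309 CPM in CON 1, 2 and 3. Gnb1, the beta subunit (chr4:155491300-155559269), had 1396, 3533 and 4792 CPM in T.chuii, 2200, 5509 and 4667 CPM in DES, and 4144, 2842 and 4115 CPM in CON, with libraries 1, 2 and 3 given in that order. Gngt1, the gamma subunit (chr6:3989082-3997436), had 525.5, 1109 and 1855 CPM in T.chuii, 446.8, 1215 and 3149 CPM in DES, and 1980, 250.5 and 1563 CPM in CON. For all 3 subunits the low libraries were T.chuii 1, DES 1 and CON 2, and the 3 groups overlapped. Group means of Gnat1 were 6835 ± 3813 CPM in T.chuii, 8271 ± 3368 CPM in DES and 7724 ± 2092 CPM in CON (SD, n = 3 each). The highest library exceeded the lowest by 4.55-fold for Gnat1, by 3.95-fold for Gnb1 and by 12.6-fold for Gngt1.

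The catalytic subunits of the phosphodiesterase varied alike. Pde6a (chr18:61220474-61289750) had 71.9, 252 and 261 CPM in T.chuii 1, 2 and 3, 115 (DES 1), 272 (DES 2) and 184 CPM (DES 3) in DES, and 200.4, 107 and 211 CPM in CON 1, 2 and 3. Pde6b (chr5:108388373-108431743) had 353, 1260 and 1593 CPM in T.chuii, 704, 1887 and 1386 CPM in DES, and 1195, 800.2 and 1237 CPM in CON. Both catalytic genes had their lowest value in T.chuii 1 and their highest in DES 2. The inhibitory subunit Pde6g (chr11:120447607-120453500) had 725, 2141 and 2417 CPM in T.chuii, 933 (DES 1), 2299 (DES 2) and 2624 CPM (DES 3) in DES, and 1982, 760.0 and 2348 CPM in CON. It also overlapped across all 3 groups, with a 3.62-fold span between its lowest and highest library.

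The channel subunits and arrestin were lowest in the same 3 libraries, T.chuii 1, DES 1 and CON 2, though in differing order. Cnga1 (chr5:72603696-72642752) had 168, 421 and 511 CPM in T.chuii 1, 2 and 3, 172 (DES 1), 433 (DES 2) and 474 CPM (DES 3) in DES, and 428, 123 and 406 CPM in CON 1, 2 and 3. Cngb1 (chr8:95239043-95306585) had 115, 373 and 325 CPM in T.chuii, 193 (DES 1), 387 (DES 2) and 287 CPM (DES 3) in DES, and 278, 193 and 302 CPM in CON. Sag (chr1:87798143-87845158) had 1688, 6722 and 7159 CPM in T.chuii, 2858, 7349 and 7245 CPM in DES, and 4883, 3226 and 7090 CPM in CON. Spans between the lowest and the highest library were 4.16-fold for Cnga1, 3.38-fold for Cngb1 and 4.35-fold for Sag. The third lowest library lay well below the next one for Cnga1 (172 against 406 CPM), and less so for Cngb1 (193 against 278 CPM).

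**Figure D2:**
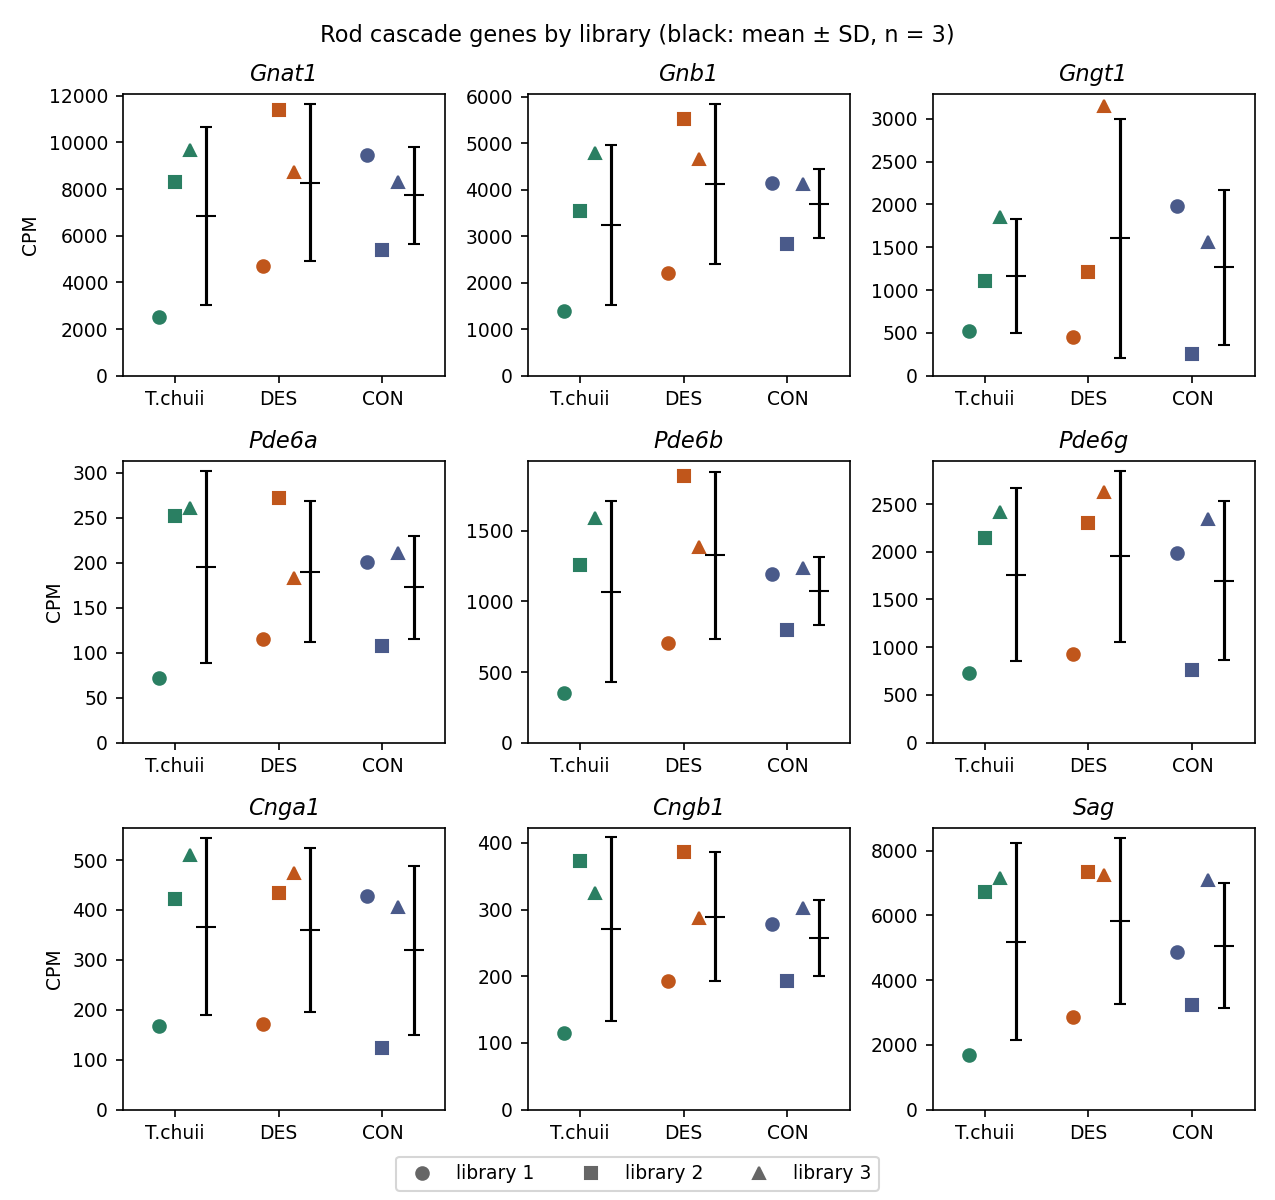
CPM of the 9 cascade genes in each library (circle, square and triangle for libraries 1, 2 and 3), with groups T.chuii, DES and CON from left to right and black bars for the mean ± SD of 3 libraries. Each group holds 1 low library for every gene, which for Gnat1 is 2504 CPM in T.chuii, 4696 CPM in DES and 5402 CPM in CON, and the groups overlap in every panel.

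Annotated neighbours limit some of these counts, because the rule for assigning reads of overlapping genes is not stated. In RefSeq the spans of Gnb1, Gngt1, Pde6a and Cnga1 each overlap 1 other gene, and that of Pde6b overlaps 3. All of these are pseudogenes or long noncoding RNAs. No other gene overlaps the span of Gnat1, Pde6g, Cngb1 or Sag.

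In DES compared with CON, where the question is the effect of the scopolamine treatment, no cascade gene passed the test. In a limma-voom fit over all 9 libraries, 0 of the 9 genes passed an adjusted p of 0.05, as did 0% of all 21287 genes (235 had an unadjusted p under 0.05). The groups overlapped for all 9 genes, against 3.65% of all genes for which they did not. The estimates were above 0 for all 9 genes, with a median log2 fold change of 0.15, against -0.016 over all genes tested. Values ran from 0.04 ± 0.53 (SE) for Gnat1 to 0.39 ± 0.86 for Gngt1. The 95% interval for Gnat1 reached from -1.15 to 1.22, and the narrowest of the 9, that of Cngb1, from -0.84 to 1.10. These bounds are not a detection limit, because a call needed an adjusted p under 0.05 over all 21287 genes. In the same fit the 10 tested lens markers had estimates from 2.87 to 12.2, and 0 of them were called. Leaving out CON 2 turned the estimate negative for 8 of the 9 genes, with a median of -0.20. Leaving out DES 2 or DES 3 turned it negative for 6 genes each (medians -0.09 and -0.07), and leaving out DES 1 moved the median to 0.60. Without CON 2, DES 1 and T.chuii 1 together, all 9 estimates stayed above 0, with a median of 0.18.

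In T.chuii compared with DES, which asks what feeding the alga added to scopolamine, no cascade gene passed the test either. The fit called 0 of the 9 genes and 0% of all genes (233 had an unadjusted p under 0.05). None of the 9 had groups that did not overlap, against 4.8% of all genes. The estimate was below 0 for 8 genes, with a median of -0.26 against -0.03 over all genes. It was -0.47 ± 0.55 for Pde6b, -0.43 ± 0.48 for Gnb1, -0.41 ± 0.53 for Gnat1 and 0.002 ± 0.59 for Cnga1. The interval for Gnat1 was -1.58 to 0.75. Without T.chuii 1 all 9 estimates were above 0 (median 0.34), and without DES 1 all 9 were below 0 (median -0.76), so the direction rests on single libraries. Leaving out T.chuii 3 moved the median to -0.67 and leaving out T.chuii 2 to -0.50. Leaving out DES 2 moved it to -0.10 and leaving out DES 3 to -0.08. Without the 3 low libraries together, 3 genes were above 0 and 6 below, with a median of -0.12. Deviations of same-numbered DES and T.chuii libraries correlated at 0.558, 0.342 and 0.17, but those of DES 2 and T.chuii 3 at 0.463. The numbers were taken as pairs from these same data, so a fit with them as a block is not an independent test. In such a fit to these 6 libraries 2 genes of the whole table were called, Mobp and Nmrk2, against 0 in a fit to the same 6 libraries without it. With the block the intervals were narrower than in the fit of all 9 libraries, -0.99 to 0.14 for Gnat1 and -0.36 to 0.39 for Cnga1, and the smallest adjusted p of the 9 genes was 0.922.

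In T.chuii compared with CON, the estimates lay on both sides of 0. The fit called 0 of the 9 genes and 0% of all genes (912 had an unadjusted p under 0.05). All 9 overlapped between the groups, against 8.42% of all genes that did not. The estimate was above 0 for Gngt1, Pde6a, Pde6g and Cnga1 and below 0 for the other 5, with a median of -0.08 against -0.044 over all genes. It ranged from -0.37 ± 0.53 for Gnat1 to 0.24 ± 0.58 for Cnga1. Without T.chuii 1 all 9 estimates were above 0 (median 0.53), without CON 2 or T.chuii 3 all 9 were below 0 (medians -0.46 and -0.27), and without T.chuii 2 the median was -0.34. Leaving out CON 1 or CON 3 moved the median to 0.04 and 0.15. Without the 3 low libraries together, 7 genes were above 0, with a median of 0.14. With libraries scaled to other retinal neurons, 6 genes were above 0. The comparisons share libraries and are not independent of each other.

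**Figure D3:**
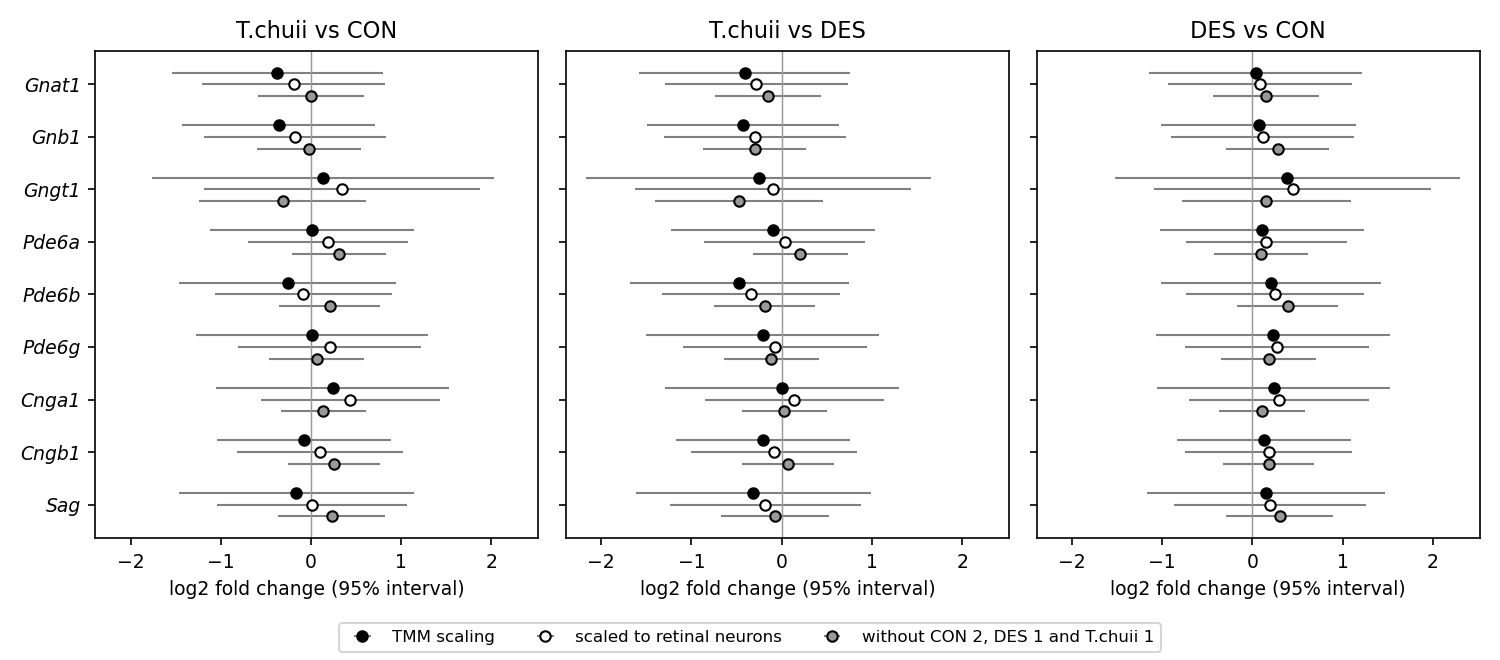
Log2 fold change of each cascade gene with its 95% interval in the 3 comparisons, for TMM scaling (black), scaling to other retinal neurons (white) and without CON 2, DES 1 and T.chuii 1 (grey). Every interval includes 0, and for Gnat1 in T.chuii vs DES the TMM interval runs from -1.58 to 0.75.

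Among the related gene lists, none of the 22 partners, 10 cone genes or 8 regulators passed the test in any comparison, against 0% of all genes in each. The estimates of the partners were above 0 for 15 of 22 in DES vs CON, for 2 of 22 in T.chuii vs DES and for 2 of 22 in T.chuii vs CON. Without the 3 low libraries those counts were 16, 8 and 20 of 22, and with libraries scaled to other retinal neurons 18, 6 and 14 of 22. The regulator Nrl averaged 84.5 ± 43.1 CPM in T.chuii, 104 ± 43.0 CPM in DES and 102 ± 36.1 CPM in CON (SD, n = 3). Crx averaged 281 ± 158 CPM in T.chuii, 333 ± 141 CPM in DES and 297 ± 66.7 CPM in CON. Nr2e3, a nuclear receptor that keeps cone genes low in rods, averaged 401 ± 199 CPM in T.chuii, 455 ± 167 CPM in DES and 455 ± 96.5 CPM in CON. Group means of all 3 regulators differed by less than the SD within groups.

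Scaling to retinal tissue narrowed the spread. When each library was scaled to 21 markers of other retinal neurons (bipolar, amacrine, horizontal and ganglion cells) in place of TMM, the span between lowest and highest library fell to between 1.34-fold (Pde6a) and 2.25-fold (Cnga1) for 8 of the cascade genes. The summed level of those markers was itself lowest in T.chuii 1, DES 1 and CON 2. The span of Gngt1 fell to 7.33-fold, against 12.6-fold with TMM. On this scale Gnat1 had 5459, 6570 and 6922 CPM in T.chuii 1, 2 and 3, 6974, 8164 and 7765 CPM in DES, and 7018, 8235 and 6306 CPM in CON. Every T.chuii library was thus below every DES library for Gnat1, the only one of the 9 genes without overlap in that comparison, against 1.57% of all genes on this scale. The log2 fold change was -0.28 ± 0.46, with an interval of -1.30 to 0.73, and an adjusted p of 1.0 in limma.

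Cnga1 was the only gene of the 9 without overlap between T.chuii and CON on this scale, against 4.18% of all genes. It had 367, 333 and 365 CPM in T.chuii 1, 2 and 3 and 317, 187 and 308 CPM in CON 1, 2 and 3. The log2 fold change was 0.44 ± 0.45 with an adjusted p of 1.0 in limma, whose standard error also draws on the spread of all other genes. Between DES and CON all 9 genes overlapped, against 2.14% of all genes that did not. With this scaling 0 of the 9 genes and 0% of all genes were called in each of the 3 comparisons (61, 54 and 231 genes had an unadjusted p under 0.05 in DES vs CON, T.chuii vs DES and T.chuii vs CON). The scaling moved the median of all genes to 0.03 in DES vs CON, 0.09 in T.chuii vs DES and 0.12 in T.chuii vs CON. The median of the 9 genes was 0.20, -0.10 and 0.10 in the same 3 comparisons, of which the last lies at the level of all genes.

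Levels of different genes were compared in FPKM, the deposited values per transcript length. By median over the 9 libraries, Sag (3396 FPKM) and Gnat1 (3294 FPKM) led, and Sag was above Gnat1 in 3 of 9 libraries, so their order was not fixed. Pde6g followed with 2261 FPKM, Gngt1 with 1364 FPKM and Gnb1 with 1256 FPKM. Pde6g was above Gngt1 in 8 of 9 libraries, and Gngt1 above Gnb1 in 6 of 9. Pde6b had a median of 415 FPKM, Cnga1 146 FPKM, Cngb1 139 FPKM and Pde6a 49.1 FPKM. Cnga1 was above Cngb1 in 4 of 9 libraries, and the steps from Gnat1 to Pde6g, from Gnb1 to Pde6b, from Pde6b to Cnga1 and from Cngb1 to Pde6a held in all 9. The top median exceeded the bottom one by 69.1-fold.

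**Figure D4:**
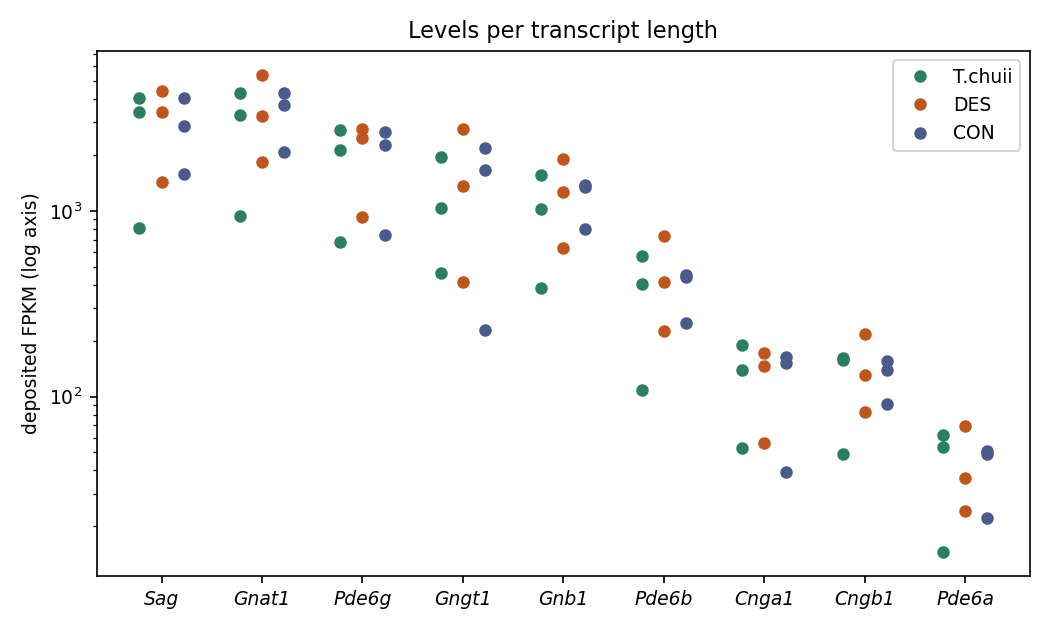
Deposited FPKM of the 9 cascade genes in every library on a log axis, ordered by median, with T.chuii, DES and CON side by side for each gene. Medians run from 3396 FPKM for Sag to 49.1 FPKM for Pde6a, and Cnga1 and Cngb1 lie at 146 and 139 FPKM.

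Ratios of FPKM within a library show how far the subunits kept to each other. Gnb1 stood at 0.31 to 0.41 of Gnat1 in all 9 libraries. The catalytic pair was unequal, with 7.39 to 11.4 times as much Pde6b as Pde6a. That ratio was 7.39, 7.53 and 9.19 in T.chuii 1, 2 and 3, 9.24, 10.5 and 11.4 in DES, and 8.98, 11.3 and 8.84 in CON. Every T.chuii library was below every DES library, although CON overlapped with both. The ratio of Gnat1 to Pde6b was 8.21, 7.43 and 7.76 in DES and 9.76, 8.32 and 8.28 in CON, without overlap. The ratio of Cnga1 to Gnat1 was 0.056, 0.042 and 0.044 in T.chuii and 0.038, 0.019 and 0.041 in CON, also without overlap. These 3 were the only non-overlapping cases among 57 (19 ratios in 3 comparisons). They were picked out after their values were seen, and they were not tested. No share over other pairs of genes is given, so they are not read as differences between groups.

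Gngt1 did not keep to the other transducin subunits. Its FPKM ratio to Gnat1 was 0.49, 0.32 and 0.45 in T.chuii 1, 2 and 3, 0.23, 0.25 and 0.85 in DES, and 0.50, 0.11 and 0.44 in CON. The ratio spanned 7.80-fold, with its highest value in DES 3 and its lowest in CON 2. Pde6g, the other gene with a transcript near 1 kilobase, spanned 2.14-fold against Gnat1, also with its highest ratio in DES 3 (0.761) and its lowest in CON 2 (0.356). The ratio of Cnga1 to Gnat1 was also lowest in CON 2 (0.019), though highest in T.chuii 1 (0.056). The ratio of Cnga1 to Cngb1 was lowest in CON 2 too, at 0.43. Transcript lengths were read from count over FPKM, which gave 984 to 1104 bases for Gngt1, 926 to 1041 for Pde6g and 2803 to 3124 for Cnga1. Relative to Gnat1 in the same library these lengths spanned 1.03-fold, 1.01-fold and 1.0-fold. Most of each range is thus shared by the genes of a library and is not a difference in transcript length. In CPM, Gngt1 and Gngt2, the cone gamma subunit, were highest in DES 3 (3149 and 53.0) and lowest in CON 2 (250.5 and 9.71). Those are levels and not ratios, and CON 2 was low for most photoreceptor genes. A ratio of Gngt2 to Gnat1 was not computed. The part of transcript length or RNA integrity in the FPKM ratios was not tested.

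**Figure D5:**
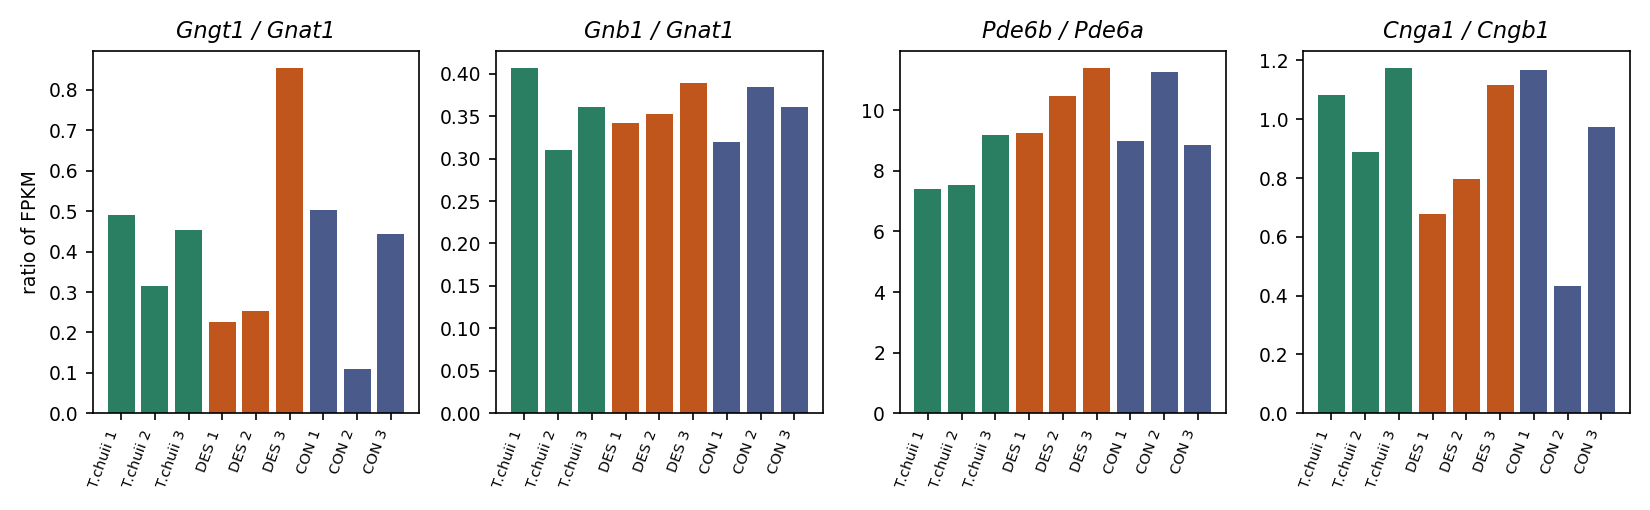
Ratio of FPKM within each library for 4 pairs of cascade genes, with T.chuii, DES and CON from left to right. Gngt1 over Gnat1 is 0.85 in DES 3 and 0.11 in CON 2, while Gnb1 over Gnat1 stays between 0.31 and 0.41.

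The transcript length behind the FPKM values varied more for Cngb1 than for the other genes. Relative to the length implied for Gnat1 in the same library, it was 0.88, 0.94 and 0.90 for Cngb1 in T.chuii 1, 2 and 3, 0.92, 0.85 and 0.81 in DES, and 0.91, 0.81 and 0.87 in CON. It spanned 1.16-fold, against at most 1.03-fold for the other 7 genes. The deposited data list 3 transcripts for Cngb1, the groups overlapped in all 3 comparisons, and which transcripts the reads were assigned to was not examined.

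The cone counterparts of the cascade genes were far less abundant. Gnat1 was 37.4 to 76.9 times as high as Gnat2, the cone alpha subunit, in FPKM. Pde6g was 10.7 to 20.1 times as high as Pde6h, Cngb1 33.9 to 59.7 times as high as Cngb3, and Sag 64.2 to 136 times as high as Arr3, the cone arrestin. The smallest step was from Gnb1 to Gnb3, at 4.16 to 8.18 times, and the largest from Cnga1 to Cnga3, at 255 to 793 times, where Cnga3 itself lay at 0.349 to 2.21 CPM. Gngt1 was 15.3 to 40.3 times as high as Gngt2, and Pde6b 204 to 427 times as high as Pde6c, the cone catalytic subunit. The ratios of Gnat1, Pde6g, Cngb1, Sag and Pde6b to their cone genes were highest in CON 2, a library low for both kinds of gene. The other 3 ratios did not follow: Gngt1 to Gngt2 was lowest in CON 2 (15.3), Gnb1 to Gnb3 was second lowest there (4.62), and Cnga1 to Cnga3 was highest in DES 3 (793). Gnb3 itself was not lowest of its group in CON 2, with 362 CPM against 298 and 515 CPM in CON 1 and CON 3. Because Gnb1 is also used outside rods, its ratio to Gnb3 is not one of rods to cones alone.

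How closely other genes tracked the cascade was measured as the SD, over the 9 libraries, of log2 CPM minus the mean log2 CPM of the 8 cascade genes other than Gnb1. Among 11021 other genes with a mean of at least 10 CPM the median SD was 0.812. The 10 genes with the smallest SD were Isl1 (0.061), Cabp5 (0.064), Scg2 (0.068), E130310I04Rik (0.072), Lrit2 (0.075), A930004D18Rik (0.079), Cacng3 (0.083), Cplx4 (0.083), Cacna2d3 (0.086) and Lhfpl3 (0.103). Isl1, a transcription factor, and Cabp5, a calcium-binding protein of bipolar cells, belong to the list of other retinal neurons used for scaling. Nrl had an SD of 0.175, Crx 0.231 and Nr2e3 0.261. Against the mean of the other 7, the cascade genes themselves had an SD of 0.137 (Pde6g) to 0.320 (Cngb1), apart from Gngt1 at 0.753, and Gnb1 had 0.257 against all 8. For Gngt1, 4364 of the 11021 genes had a smaller SD. Those genes were measured against the mean of all 8, Gngt1 included, so the references differ and the count is not like for like. The 9 libraries form a low and a high set, so no correlation coefficient is given.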

How the data were processed

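Whole-eyeball RNA was sequenced in 9 libraries, grouped by sample title. Per the labels' protocols the library kit was stranded and selected mRNA. The submitters' processing notes name the build mm10 with StringTie 2.1.3b, HISAT2 2.1.0, Bowtie2 2.3.4.1, Trimmomatic 0.38 and FastQC 0.11.7. The counting step and its strand setting are not given in the sources used here. Per the file headers, each gene has a deposited count of reads and a deposited FPKM. The column headers carry other sample numbers than the titles. Rows have a varying number of cells, so both values were taken by position counted from the last cell. The smallest deposited count was 1, and no 2 libraries agreed within sampling noise (lowest chi-square per gene 34.6).

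Genes were kept with the equivalent of 10 reads in a median library in at least 3 libraries and 15 reads in all. Scaling used trimmed means of M-values (TMM), and the test was limma-voom on counts (R 4.3.3, limma 3.58.1) in 1 fit of all 9 libraries, with Benjamini-Hochberg adjustment over 21287 genes, two-sided at 0.05. CPM were computed here on the scaled library sizes. Interval bounds are at 95%. The test was tried on simulated data. Alternatives were other scalings, no filter, log2(FPKM + 0.1) or (FPKM + 1) with limma-trend, leaving out libraries, and the title number as a block. Deviations of same-numbered DES and T.chuii libraries correlated at 0.558, 0.342 and 0.17, so their numbers were taken as pairs. This pairing comes from the data, not from a label, and is not clear-cut: DES 2 and T.chuii 3, with different numbers, correlated at 0.463, and CON 2 correlated at 0.45 with DES 1 and 0.456 with T.chuii 1. Fits to the 6 DES and T.chuii libraries with and without the block were added after the data were seen. Gene IDs were matched to RefSeq (GRCm38.p6) for 22534 of 22587 genes. Other work used pandas 2.3.3 and matplotlib 3.10.9 in Python 3.11.15.

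The 9 genes, the marker lists and the 3 libraries left out together were chosen with earlier results of these data known. Named genes are the 9 cascade genes, Nrl, Nr2e3, Crx, the cone counterparts, and the 10 genes most like the cascade. One further gene named by this rule is not reported here.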

Additional observations from a re-analysis of the deposited data

How the results depend on the processing

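No cascade gene was called under any alternative tried, including retinal-neuron scaling with each library left out. Over the whole table, median-of-ratios or total-count scaling, no filter, retinal-neuron scaling, limma-trend on FPKM and the title number as a block in all 9 libraries each called 0 genes, as the fit in the text did. Leaving out 1 library called 0 to 15 genes in DES vs CON, 0 in T.chuii vs DES and 0 to 18 in T.chuii vs CON, the calls arising without DES 2 and including the lens genes Cryaa and Crybb1. Leaving out CON 2, DES 1 and T.chuii 1 together called 1 gene in T.chuii vs DES and 1 in T.chuii vs CON, AA386476 in both. The replicate block in DES and T.chuii libraries alone called 2 genes in T.chuii vs DES, Mobp and Nmrk2, and the same 6 libraries without the block 0. These genes were chosen after their values were seen.

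The direction of the cascade estimates often turned when 1 library was left out. In DES vs CON the lowest and highest log2 fold changes were Gnat1 -0.23 and 0.39, Gnb1 -0.18 and 0.47, Gngt1 -0.53 and 1.10, Pde6a -0.21 and 0.42, Pde6b -0.09 and 0.60, Pde6g -0.27 and 0.69, Cnga1 -0.34 and 0.70, Cngb1 -0.10 and 0.39 and Sag -0.13 and 0.60. In T.chuii vs DES the lowest and highest log2 fold changes were Gnat1 -0.77 and 0.22, Gnb1 -0.83 and 0.11, Gngt1 -0.97 and 0.48, Pde6a -0.41 and 0.54, Pde6b -0.87 and 0.22, Pde6g -0.67 and 0.36, Cnga1 -0.46 and 0.51, Cngb1 -0.50 and 0.34 and Sag -0.76 and 0.39. In T.chuii vs CON the lowest and highest log2 fold changes were Gnat1 -0.69 and 0.25, Gnb1 -0.69 and 0.17, Gngt1 -0.79 and 0.76, Pde6a -0.30 and 0.63, Pde6b -0.64 and 0.42, Pde6g -0.47 and 0.57, Cnga1 -0.34 and 0.73, Cngb1 -0.34 and 0.46 and Sag -0.49 and 0.53. Without CON 2, DES 1 and T.chuii 1 together, the sign turned in T.chuii vs DES for Pde6a (0.21) and Cngb1 (0.071), and in T.chuii vs CON for Gnat1 (0.001), Gngt1 (-0.32), Pde6b (0.21), Cngb1 (0.25) and Sag (0.23). With retinal-neuron scaling it turned for Pde6a in T.chuii vs DES (0.032) and for Cngb1 (0.10) and Sag (0.012) in T.chuii vs CON. With FPKM plus 0.1 it turned for Gnat1 in DES vs CON (-0.017), Cnga1 in T.chuii vs DES (-0.005) and Pde6a (-0.059) and Pde6g (-0.058) in T.chuii vs CON. With FPKM plus 1 the same 4 turned (-0.017, -0.005, -0.052 and -0.057). With the replicate block it turned for Gnat1 in DES vs CON (-0.008) and for Pde6a (-0.026) and Pde6g (-0.021) in T.chuii vs CON. Median-of-ratios scaling turned Cnga1 in T.chuii vs DES (-0.003), as did the fit of DES and T.chuii libraries alone without the block (-0.005). The cause was not tested.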
